A study of Mus musculus with 6 samples.

Results

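Polycomb repressive complex 2 (PRC2) was examined through the mRNA of its subunits and cofactors in mouse embryonic stem cells (mESCs) with and without huntingtin (Htt). The genes were Ezh1, Ezh2, Eed, Suz12, Rbbp4 and Rbbp7 of the core, Phf1, Mtf2 and Phf19 of the PRC2.1 form and Jarid2 of the PRC2.2 form, chosen by symbol, and all 10 were found among the 23412 rows of the gene table. The lines were R1, the parental wild type, and HN, in which both copies of Htt had lost the promoter and exon 1 (Htt-/-). Both lines are of the 129Sv strain, and each is represented by 1 line, so an effect of Htt cannot be told apart from any other difference between these lines. Cells of both lines were kept undifferentiated without feeder cells on gelatin, in serum with leukemia inhibitory factor and inhibitors of FGF receptor (SU5402), MEK (PD184352) and GSK3 (CHIR99021). Total RNA was sequenced from 3 batches of each line, collected on 17 February, 20 February and 2 March, which gave 6 libraries.

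PRC2 places methyl groups on lysine 27 of histone H3, the mark of silent developmental genes in embryonic stem cells. Either Ezh2 or its relative Ezh1 carries the catalytic site, Eed and Suz12 are needed for activity, and the histone chaperones Rbbp4 and Rbbp7 bind Suz12. The Polycomb-like proteins Phf1, Mtf2 and Phf19 define PRC2.1, whereas Jarid2 and Aebp2 define PRC2.2, and both sets help to bring the core to CpG-rich promoters. The study linked the genes that were higher in HN than in R1 to a signature of SUZ12-deficient cells, which raises the question of whether the mRNAs of PRC2 itself differed between the lines.

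Libraries held between 1640391 and 3866717 reads on genes. Those of 20 February were the deepest of each line, and those of 2 March had reads on the most genes (20675 in R1 and 20542 in HN, against 18133 to 19083 in the others), so depth and the number of genes read cannot be told apart from the date. Htt had 230, 257 and 199 normalized counts in the R1 libraries and 18.3, 58.1 and 54.2 in the HN libraries, so the labels and the Htt mRNA went together. Normalized counts are read counts divided by a factor for the depth of each library. Markers of pluripotent stem cells summed to 12428 to 17213 normalized counts in R1 and 14502 to 19869 in HN. Limma called 0 of the 8 without regard to date, where 0.245% of all tested genes were called. Within dates it called 5 higher in HN and 1 lower, against 5.46% and 4.02% of all tested genes. The lower gene was Zfp42, at a log2 fold change of -0.79. The part of these marker differences in the results for PRC2 genes was not tested. The 25 markers of neural, primitive streak and mesoderm, primitive endoderm, trophoblast and fibroblast cells summed to at most 318 normalized counts for any type in any library, and none of them was at 0 in all libraries.

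PRC2 genes differed widely in level, with Mtf2 the most abundant and Phf19 the least. Divided by the total length of their annotated exons, mean levels over the 6 libraries were 341 normalized counts per kb for Mtf2, 217 for Rbbp7, 154 for Suz12, 148 for Eed, 106 for Rbbp4 and 76.4 for Jarid2. Catalytic subunits lay lower, at 23.4 normalized counts per kb for Ezh2 and 20.3 for Ezh1, and the other Polycomb-like genes lowest, at 10.3 for Phf1 and 2.78 for Phf19. Neighbours in this order kept it in 6 of 6 libraries, except Rbbp7 above Suz12 (5 of 6), Suz12 above Eed (3 of 6) and Ezh2 above Ezh1 (3 of 6). Among the Polycomb-like genes, Mtf2 was 28.7 to 42.8 times as high per kb as Phf1 and 85.5 to 232 times as high as Phf19, depending on the library. Phf1 shares exon bases with its neighbour Cuta, so its level and the first of these ratios are uncertain. Suz12 per kb was 3.88 to 10.7 times Ezh2, and Eed was 4.65 to 9.32 times Ezh2.

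The length used for division changed the middle of this order. With the longest coding transcript of each gene in place of all annotated exons, Eed came after Rbbp7 at 273 normalized counts per kb, followed by Rbbp4 at 210 and Suz12 at 174, and Ezh2 stood above Ezh1 in 6 of 6 libraries. Suz12 was then 1.83 to 5.07 times Ezh2. Mtf2, Rbbp7, Jarid2, Ezh2, Ezh1, Phf1 and Phf19 kept their ranks.

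**Figure D1:**
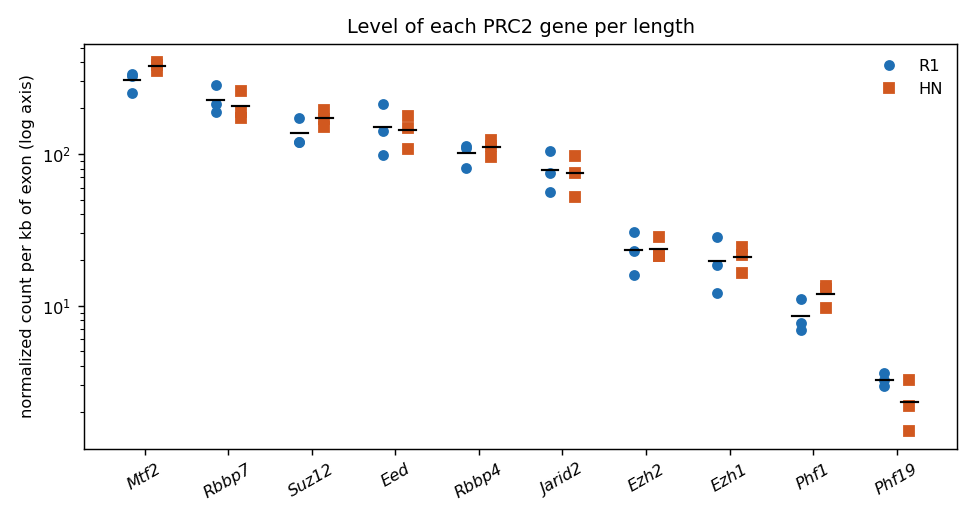
Level of each PRC2 gene as normalized count per kb of annotated exon, on a log axis, with circles for the 3 R1 libraries, squares for the 3 HN libraries and black bars for the mean of each line. Mtf2 stands highest at a mean of 341 over all libraries, the catalytic Ezh2 and Ezh1 lie near 20 and Phf19 is lowest at 2.78.

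No PRC2 gene was called different between HN and R1 when the lines were compared without regard to date. With limma, a linear model on the log2 scale, 0 of 10 reached a Benjamini-Hochberg adjusted p under 0.05 and 0 of 10 reached an unadjusted p under 0.05, while 0.245% of all 14276 tested genes passed the first limit and 5.91% the second. The count was also 0 of 10 with edgeR, which called 0.238% of all tested genes, and with DESeq2, which called 0.785%. The median log2 fold change of the 10 genes was 0.10, against -0.01 over all tested genes, and 6 were above 0 and 4 below. For 8 of the 10, the 95% interval excluded a 2-fold change in either direction, the exceptions being Phf1 and Phf19.

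Libraries of the same date resembled each other, and comparing the lines within dates narrowed the intervals. With the date as a replicate block, 2 of 10 genes were called, Suz12 and Mtf2, both higher in HN, where 9.48% of all tested genes were called (5.46% higher and 4.02% lower). Phf1 joined them at an unadjusted p under 0.05, so that 3 of 10 genes passed that limit, against 21.6% of all tested genes. edgeR with the block called the same genes, 2 of 10, against a background of 11.2%, and DESeq2 with the block called Mtf2 alone, 1 of 10, against 3.59%. The median distance from the estimate to the end of its 95% interval was 0.58 on the log2 scale without the block and 0.20 with it. With the block, the interval excluded a 2-fold change for 9 of 10 genes, all but Phf19. Suz12, Rbbp4, Phf1 and Mtf2 were higher in HN on all 3 dates and Rbbp7 and Jarid2 lower, so that 6 of 10 genes kept 1 direction, where 41.5% of all tested genes did (20.3% higher and 21.1% lower). In whole-culture RNA, less RNA per cell and fewer cells carrying it cannot be told apart.

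Catalytic subunits did not keep a direction between the lines. Ezh2, the main methyltransferase of dividing cells (GRCm38, chr6:47530139-47595341, minus strand), had 204, 152 and 106 normalized counts in R1 and 141, 190 and 142 in HN. The lines overlapped, and R1 was higher on the first date and HN on the other dates. The log2 fold change, HN minus R1 here and throughout, was 0.07 (SE 0.26, 95% interval -0.50 to 0.63, limma adjusted p = 1), or -0.23 to 0.37 with the block. Ezh1, the relative that is more prominent in resting cells (chr11:101191115-101226463, minus strand), had 211, 90.3 and 139 normalized counts in R1 and 161, 123 and 181 in HN. Its libraries overlapped too, and its log2 fold change was 0.14 (SE 0.29, interval -0.50 to 0.79).

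Eed, which binds trimethylated lysine 27 and stimulates the enzyme (chr7:89954654-89980983, minus strand), had 545, 814 and 375 normalized counts in R1 and 562, 681 and 414 in HN. Its values followed the date rather than the line, with the highest library of each line on 20 February and the lowest on 2 March. The log2 fold change was -0.02 (SE 0.28, interval -0.63 to 0.59), and -0.23 to 0.18 with the block.

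Suz12, the scaffold that holds the core together (chr11:79993106-80034123, plus strand), had 588, 589 and 846 normalized counts in R1 and 843, 744 and 963 in HN. HN was higher on every date, by 0.52, 0.34 and 0.19 on the log2 scale, but the R1 library of 2 March stood above 2 of the HN libraries, so the lines overlapped. The log2 fold change was 0.35 (SE 0.20, interval -0.10 to 0.79, limma adjusted p = 1), a fold of 1.27. With the block its interval was 0.16 to 0.54 and its adjusted p = 0.0136, and edgeR with the block gave an adjusted p = 0.00657, while DESeq2 with the block gave 0.0545. Without the libraries of 17 February the blocked adjusted p was 0.124, without those of 20 February it was 0.225, and without those of 2 March it was 6.86e-04.

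Rbbp4 and Rbbp7 are closely related WD40 proteins that also serve in histone deacetylase and chromatin assembly complexes. Rbbp4 (chr4:129307100-129335370, minus strand) had 954, 987 and 706 normalized counts in R1 and 987, 1080 and 837 in HN. HN was higher on each date, by 0.05, 0.13 and 0.25 on the log2 scale, with a log2 fold change of 0.14 (SE 0.20, interval -0.29 to 0.57) and a blocked adjusted p = 0.396. Rbbp7 (chrX:162760402-162779092, plus strand) had 619, 821 and 546 normalized counts in R1 and 546, 749 and 500 in HN. HN was lower on each date, by 0.12 to 0.18 on the log2 scale (log2 fold change -0.15, SE 0.22, interval -0.63 to 0.34), and the blocked adjusted p = 0.401. Both genes overlapped between the lines. Rbbp4 and Rbbp7 shared 17.2% and 11.2% of their 50-base stretches with transcripts of other genes, so some of their reads are uncertain.

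Mtf2, the Polycomb-like protein that binds unmethylated CpG-rich DNA (chr5:108065674-108109004, plus strand), had 1863, 1906 and 1434 normalized counts in R1 and 2279, 2197 and 1992 in HN. It was the only one of the 10 genes whose HN libraries all stood above all R1 libraries, a pattern that 5.23% of all tested genes showed, and 0 of 10 lay wholly below, against 5.54%. Differences within dates were 0.29, 0.20 and 0.47 on the log2 scale. The log2 fold change was 0.32 (SE 0.19, interval -0.09 to 0.73, limma adjusted p = 1), a fold of 1.25. With the block the interval was 0.15 to 0.50 and the adjusted p = 0.0124, and edgeR and DESeq2 with the block gave adjusted p-values of 0.00581 and 0.0149. Without the libraries of 20 February the blocked adjusted p was 0.159, and without those of either other date it was 0.0121 or 0.0284.

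Since Suz12 and Mtf2 were the genes called together within dates, the 250 bases upstream of their starts are shown, from RefSeq for GRCm38.p6, 5′ to 3′ on the plus strand, with the motifs searched in capitals. Suz12 is the window chr11:79992856-79993105 and Mtf2 the window chr5:108065424-108065673, the first of 2 Mtf2 starts in the table, and neither window held annotated exon sequence.
Suz12: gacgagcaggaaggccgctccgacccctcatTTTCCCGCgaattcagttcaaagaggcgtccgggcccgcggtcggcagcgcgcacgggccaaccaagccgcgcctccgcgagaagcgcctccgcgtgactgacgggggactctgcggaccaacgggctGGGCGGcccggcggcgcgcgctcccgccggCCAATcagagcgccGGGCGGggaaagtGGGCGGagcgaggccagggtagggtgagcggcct
Mtf2: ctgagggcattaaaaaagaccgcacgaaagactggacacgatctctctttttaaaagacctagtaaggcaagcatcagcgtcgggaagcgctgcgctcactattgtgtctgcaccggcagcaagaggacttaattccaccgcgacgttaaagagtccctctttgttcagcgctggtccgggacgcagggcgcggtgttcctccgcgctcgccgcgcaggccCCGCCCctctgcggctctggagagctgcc
The motifs were the CCAAT box, the GC box GGGCGG and the E2F sites TTTCCCGC and TTTGGCGC, on both strands. The Suz12 window held 1 CCAAT box, 3 GC boxes and 1 TTTCCCGC, none overlapping, and the Mtf2 window held 1 GC box. The window of the second Mtf2 start held 1 CCAAT box and 0 GC boxes. These motifs were not particular to the called genes, since the Phf19 window also held 1 TTTCCCGC, with 4 GC boxes, and the Phf1 window held 4 GC boxes. Of 32851 promoter windows of the same length, 33.8% held a CCAAT box, 32.7% a GC box, 0.895% the sequence TTTCCCGC and 0.417% the sequence TTTGGCGC. GC content was 73.6% for Suz12 and 59.2% for Mtf2. Such matches describe the letters of the windows and not binding.

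Phf1 and Phf19 were the least abundant of the genes and the least precisely measured, with 229 and 89 reads over the 6 libraries. Phf1 (chr17:26933052-26937908, plus strand) had 26.6, 38.5 and 24.3 normalized counts in R1 and 45.0, 46.8 and 33.6 in HN. HN was higher on each date, by 0.74, 0.28 and 0.45 on the log2 scale, and the lines overlapped only through the R1 library of 20 February. The log2 fold change was 0.49 (SE 0.30, interval -0.17 to 1.15), and with the block the interval was 0.02 to 0.96 and the adjusted p = 0.213. Of its exon bases, 39.3% lie within its neighbour Cuta, and the counting is not stated to use strand, so Phf1 reads cannot be told apart from Cuta reads there. Phf19 (chr2:34893757-34914026, minus strand) had 18.1, 16.3 and 14.8 normalized counts in R1 and 10.95, 16.3 and 7.58 in HN. HN was lower on 17 February and 2 March and at the R1 level on 20 February, with a log2 fold change of -0.52 (SE 0.45, interval -1.50 to 0.47) that remained imprecise with the block (-1.26 to 0.22).

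Jarid2, the cofactor of PRC2.2 that lacks the demethylase activity of its protein family (chr13:44729474-44921643, plus strand), had 731, 1007 and 543 normalized counts in R1 and 728, 937 and 508 in HN. The lines nearly coincided on each date, with differences of -0.01, -0.10 and -0.10 on the log2 scale. The log2 fold change was -0.07 (SE 0.27, interval -0.66 to 0.52), and -0.26 to 0.12 with the block.

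**Figure D2:**
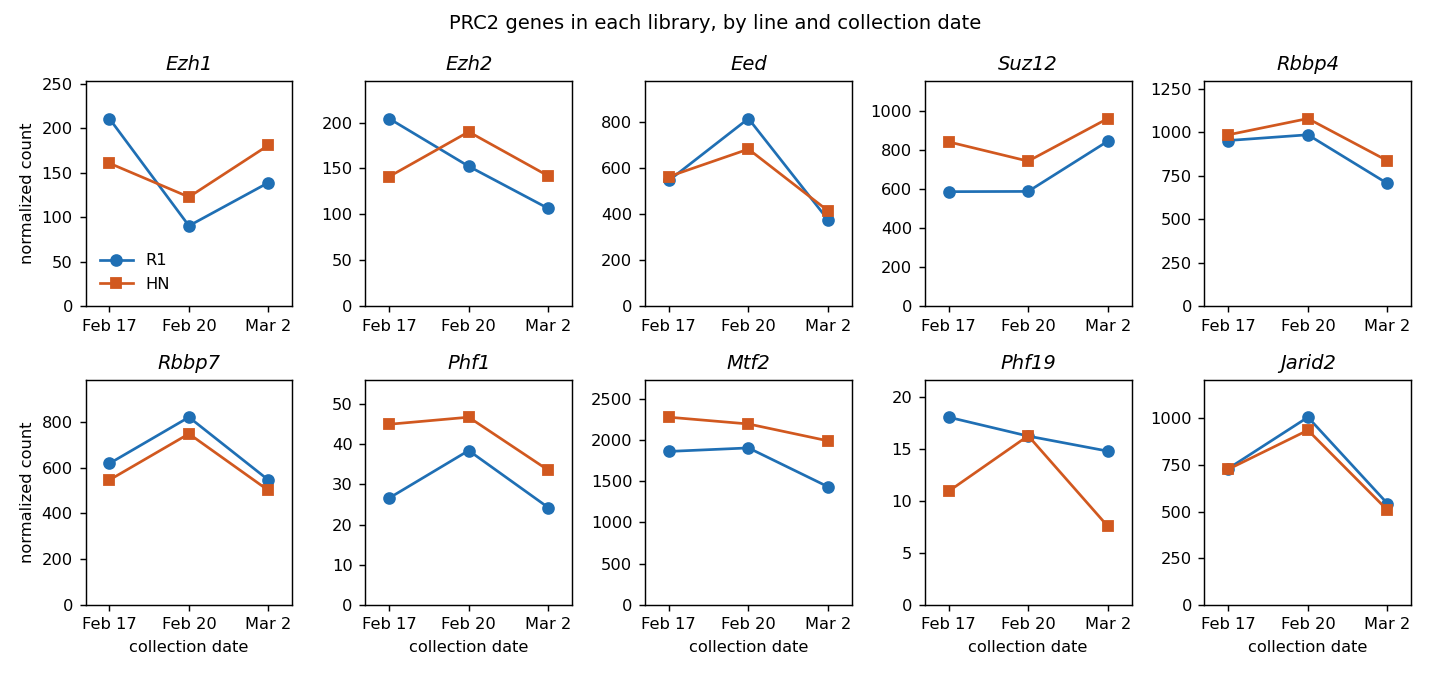
Normalized count of each PRC2 gene (vertical axis from 0, scaled for each gene) by collection date, with blue circles for R1 and orange squares for HN, 1 library per point. The HN points of Suz12, Rbbp4, Phf1 and Mtf2 lie above the R1 point of every date, while Eed, Rbbp7 and Jarid2 peak on 20 February in both lines.

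**Figure D3:**
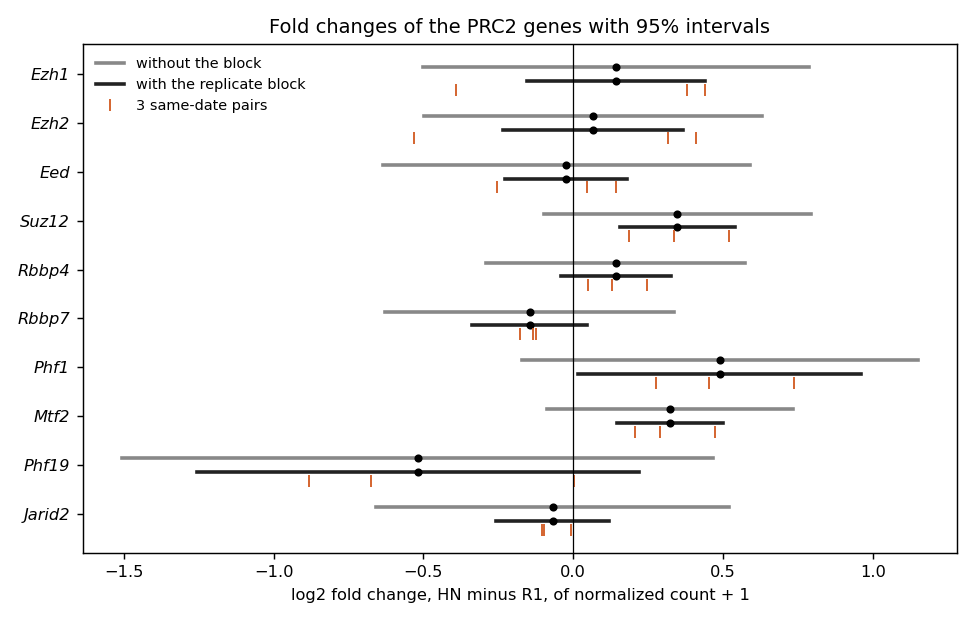
Log2 fold change of each PRC2 gene, HN minus R1, of normalized count + 1, as a dot with its 95% interval without the block (grey) and with the replicate block (black), and the differences of the 3 same-date pairs as orange ticks. Without the block each interval includes 0, and with it the intervals of Suz12 (0.16 to 0.54), Mtf2 (0.15 to 0.50) and Phf1 (0.02 to 0.96) lie above 0.

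More PRC2 genes were called for the collection date than for the line. The limma F test of date, with line in the model, called 8 of 10 genes, all but Phf1 and Phf19, where 46.0% of all tested genes were called. From 20 February to 2 March, Eed fell by 0.92 on the log2 scale (adjusted p = 3.23e-06) and Jarid2 fell by 0.89 (adjusted p = 1.57e-06). Rbbp7 differed by -0.58, Ezh2 by -0.47, Rbbp4 by -0.42 and Mtf2 by -0.28 between the same dates. The sizes moved with the scaling of the libraries. With quantile normalization Eed differed by -0.58, Jarid2 by -0.57, Rbbp7 by -0.26, Ezh2 by -0.16, Rbbp4 by -0.14 and Mtf2 by -0.015. With median centring Ezh2 differed by -0.32, Rbbp4 by -0.28 and Mtf2 by -0.13. Ezh2, Rbbp4 and Mtf2 were not called for date with either of these scalings. Suz12 (0.45, adjusted p = 0.00482) and Ezh1 (0.59, adjusted p = 0.0015) were higher on 2 March than on 20 February, opposite to the others. With quantile normalization they differed by 0.79 and 0.89. Against the earliest date, Suz12 differed by 0.36 on 2 March, whereas Ezh1 differed by -0.80 on 20 February and by -0.21 on 2 March. Ezh1 was lowest on 20 February in both lines. Its highest library was that of the earliest date in R1 (211 normalized counts) but that of 2 March in HN (181). With quantile normalization, Ezh1 on 2 March differed from the earliest date by -0.0017.

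These date differences were set against genes of like abundance. Over the 5383 tested genes with a mean of at least 100 normalized counts, the median difference between those dates was -0.33, and 90% of them lay between -0.96 and 0.30. Of these genes, 6.20% fell further than Eed and 2.68% rose further than Suz12. Calls for Eed and Jarid2 held in 14 of 15 other settings, all but the fit with no variance trend, under which no PRC2 gene was called. Those for Ezh1 held in 13, Rbbp7 in 12 and Suz12 in 11, whereas Rbbp4 held in 8, Mtf2 in 6 and Ezh2 in 4.

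Related subunits can replace each other, so their balance was compared as the log2 ratio of normalized counts within each library. Exact two-sided permutation tests over 3 against 3 libraries cannot give a p below 0.1, and 4 ratios were tested. Mtf2 to Phf19 had log2 ratios of 6.61, 6.79 and 6.50 in R1 and 7.58, 6.99 and 7.86 in HN. All HN values were above all R1 values, with a difference of 0.84 (exact permutation p = 0.1, adjusted p = 0.4), and the Phf19 term rests on 7 to 23 reads per library. Rbbp4 to Rbbp7 had log2 ratios of 0.62, 0.26 and 0.37 in R1 and 0.85, 0.53 and 0.74 in HN. HN was higher on each date, by 0.23, 0.26 and 0.37, though the lines overlapped (difference 0.29, exact permutation p = 0.2, adjusted p = 0.4).

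Ezh2 to Ezh1 differed between the lines by -0.08 (exact permutation p = 0.8) but spanned -0.38 to 0.75 over the dates, with the highest ratio of each line on 20 February and the lowest on 2 March. Mtf2 to Phf1 differed by -0.17 (exact permutation p = 0.5). Neither ratio separated the lines.

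**Figure D4:**
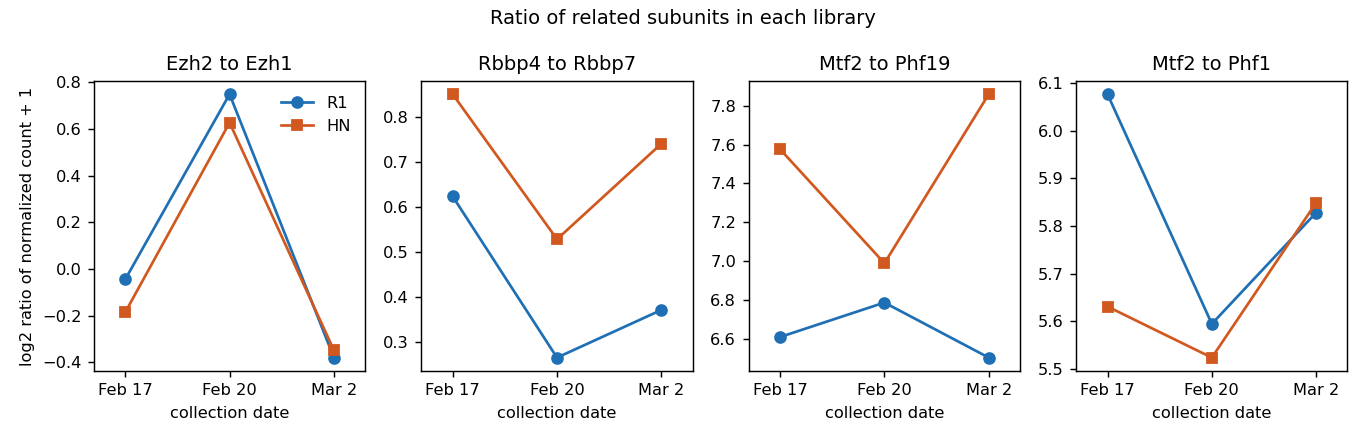
Log2 ratio of normalized count + 1 between related subunits in each library, by collection date, with circles for R1 and squares for HN and a separate vertical scale in each panel. The HN points lie above the R1 points on each date for Rbbp4 to Rbbp7 and for Mtf2 to Phf19, while Ezh2 to Ezh1 peaks on 20 February in both lines.

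Among 5 other PRC2 cofactors, 0 were called by limma without the block (Epop alone had an unadjusted p under 0.05). Of all tested genes, 0.245% were called and 5.91% passed the unadjusted limit. With the block, 2 were called higher in HN, where 5.46% of all tested genes were called higher. Epop, a PRC2.1 cofactor listed as E130012A19Rik, had 764, 1137 and 648 normalized counts in R1 and 1361, 1907 and 1247 in HN. All HN libraries stood above all R1 libraries, with a log2 fold change of 0.84 (SE 0.24, limma adjusted p = 0.424, with the block 1.36e-08). The study had named this gene from these same libraries, so its direction is not independent evidence. Aebp2, a PRC2.2 cofactor, had a log2 fold change of 0.39 (blocked adjusted p = 0.048, with overlapping libraries), and Lcorl, a PRC2.1 cofactor, of 0.33 (blocked adjusted p = 0.339). The median of the 5 was 0.33.

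Kdm6a, an X-linked demethylase that removes the mark PRC2 places, was called lower in HN, where 0.126% of all tested genes were called lower. It had 213, 320 and 209 normalized counts in R1 and 9.73, 10.6 and 0 in HN, with a log2 fold change of -5.60 (SE 0.74, limma adjusted p = 0.007). The study had named Kdm6a from these same libraries, so its direction is not independent evidence. The study also reported lower Kdm6a mRNA in HN by RT-qPCR and less Kdm6a protein in the nucleus by immunoblot. Kdm6b, the other demethylase, had 33.0, 33.3 and 58.0 normalized counts in R1 and 57.2, 48.2 and 45.5 in HN, a log2 fold change of 0.32 (SE 0.29) with overlapping libraries.

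Of the 5 Cbx genes whose proteins read the mark in PRC1, 0 were called by limma without the block and 0 had an unadjusted p under 0.05. Of all tested genes, 0.245% and 5.91% passed these limits. With the block, Cbx7 alone was called, lower in HN, where 4.02% of all tested genes were called lower. Cbx7, the main reader of mESCs, had 650, 822 and 334 normalized counts in R1 and 416, 493 and 296 in HN. HN was lower on each date, although the R1 library of 2 March lay within the HN range (log2 fold change -0.52, SE 0.31, blocked adjusted p = 9.92e-04). The fold changes of Cbx6 and Cbx2 were -0.40 and 0.11 on the log2 scale. Among 16 partners of Rbbp4 and Rbbp7 in other complexes, such as the NuRD remodeller, 0 were called in either limma fit or at an unadjusted p under 0.05 without the block, and their median log2 fold change was 0.13. Gatad2b (0.42), Mta2 (0.27) and Mta3 (0.20), all of NuRD, had the largest.

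Hox genes are the best-known targets of Polycomb repression. Of 39, 32 were abundant enough to be tested, 0 were called in either limma fit or at an unadjusted p under 0.05 without the block, and the median log2 fold change was -0.005 on 16 positive and 16 negative values. Hoxb2 (1.40), Hoxb8 (-0.85) and Hoxb1 (0.75) had the largest log2 fold changes, each at a few reads per library. At this depth and with 0.245% of all tested genes called, a count of 0 says little about them. Of the 32 tested, 30 were highest on 2 March (93.8%), as were 35.7% of all tested genes and 74.1% of the 4580 with a mean under 25 normalized counts, a level that every Hox gene was under. Genes were tested by their mean over all libraries, so a gene high only on 2 March could pass through that date alone. Such a filter can favour genes highest on that date, both in the list and in the background. With untested genes included, 37 of the 39 Hox genes were highest on 2 March. Sums over the 39 genes were 165, 178 and 685 normalized counts in R1 and 315, 178 and 517 in HN, in date order.

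Of 67 other developmental regulators known as PRC2 targets, 62 were tested and 1 was called, where 0.245% of all tested genes were called. Their median log2 fold change was 0.03 on 34 positive and 28 negative values. Olig1, a factor of the oligodendrocyte lineage, had 7.45, 5.18 and 20.2 normalized counts in R1 and 75.4, 71.6 and 63.9 in HN, a log2 fold change of 2.78 (SE 0.43, limma adjusted p = 0.0201). Its neighbour Olig2 had 3.19, 6.66 and 28.3 in R1 and 68.1, 94.98 and 46.6 in HN, a log2 fold change of 2.80 (SE 0.60, adjusted p = 0.136, below 0.05 with the block). Both genes were named by the study from these libraries. It also reported higher mRNA of both in HN by RT-qPCR and more Olig2 protein by immunoblot. By chromatin immunoprecipitation in R1 it did not detect Htt and Ezh2 together at the promoters of Olig1 and Olig2. Gata3 followed at 1.47 (SE 1.07, adjusted p = 1).

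With the block 4 of the 62 regulators were called, all higher in HN, where 5.46% of all tested genes were called higher: Olig1, Olig2, and T and Eomes, which are named after their values were seen. T had 11.7, 45.1 and 20.2 normalized counts in R1 and 40.2, 63.1 and 57.4 in HN (log2 fold change 1.21), and Eomes had 63.9, 107 and 26.96 in R1 and 142, 179 and 55.2 in HN (0.96). T and Eomes also mark primitive streak and mesoderm, whose 5 markers summed to 79.8 to 169 normalized counts in R1 and 156 to 262 in HN. Since T and Eomes are themselves the most abundant of these 5, the sum is not separate evidence. Of the other markers, Kdr had a log2 fold change of 1.11 and Mixl1 of 0.28. Both had overlapping libraries and neither was called in either limma fit, while Mesp1 was too low to be tested. The part of such cells in this result was not tested. Of the 62, 59 were highest on 2 March (95.2%), as were 51% of the 8869 tested genes with a mean under 100 normalized counts, a level that all of these regulators were under. Most were far lower, with a median level of 11.2 over all 67, and of the 4580 tested genes with a mean under 25, 74.1% were highest on 2 March. The filter on the mean over all libraries can favour such genes here too. With untested genes included, 64 of the 67 were highest on that date.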

How the data were processed

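RNA was made into TruSeq v2 libraries and sequenced as paired ends on an Illumina HiSeq. The authors aligned reads to mm10/GRCm38 (STAR), removed duplicates (Picard), counted reads on exons (HTSeq) and deposited a normalized signal per gene, that is, counts divided by DESeq2 size factors. Versions, annotation and strand setting are not given in the sources used here. Dates had replaced the gene symbol in 27 rows, and 0 columns were unused.

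All values (100%) were whole multiples of 1 read within 0.01, so reads were recovered for depth and for the count tests. These depths bear only on counting error, and reads need not be independent molecules. The main test was limma 3.58.1 (R 4.3.3, variance trend, two-sided) on log2(normalized count + 1) of the 14276 genes with a mean of at least 5, called at a Benjamini-Hochberg adjusted p under 0.05 with no minimum fold. Fold changes are on that scale and understate those of low genes. Alternatives were the replicate block, edgeR 4.0.16 and DESeq2 1.42.0 on recovered reads with and without it, pseudocounts of 0.1 and 10, other filters and scalings, no variance trend and leaving out each library. The scripts were tested on simulated data.

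Replicates with the same number share a collection date in the labels, which pairs them. Deviations from the line means of same-date libraries correlated at 0.25, 0.69 and 0.77 over 14276 genes. Without the block, p-values measure the spread between these dated batches of 1 line each. With the block, they measure how the difference between the lines varied from date to date. In both fits limma moderates the spread of each gene toward that of genes of like level. With few libraries, the p-values of the blocked fits therefore rest largely on spread pooled over genes.

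Positions and lengths are from GENCODE M21 for GRCm38, and promoter sequences from RefSeq (10 of 10 genes matched). Genes named are the 10 PRC2 genes, Htt, Kdm6a, Kdm6b, every called gene of the other lists and the 3 largest fold changes of each list. The PRC2 genes and lists were chosen with earlier results of these data known.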

Additional observations from a re-analysis of the deposited data

How the results depend on the processing

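Among the settings tried, only fits with the replicate block called a PRC2 gene between HN and R1. The count of PRC2 genes called was 0 without it and 2 with it in limma and in edgeR, 1 in DESeq2, 2 with the block together with median centring, quantile normalization or a pseudocount of 0.1 or 10, and 0 with the block and no variance trend. Genes of the other lists called numbered 2 in limma and edgeR and 3 in DESeq2 without the block and, with it, 8 in limma and edgeR, 5 in DESeq2, 8 with median centring or a pseudocount of 10, 7 with quantile normalization or a pseudocount of 0.1, and 0 with no variance trend. Without the block they numbered 1 with a pseudocount of 0.1 or a mean of at least 50, and 0 with no variance trend or without the R1 library of 17 February. The block combined with another setting, and leaving out date pairs, were chosen after seeing the data.

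Leaving out 1 library, or 1 date pair with the block, gave 0 to 2 PRC2 genes called, 0 to 11 of the other lists, and a median log2 fold change of the PRC2 genes from -0.094 to 0.23. Directions turned for Ezh1 (-0.16 to 0.44), Ezh2 (-0.18 to 0.36), Eed (-0.30 to 0.26), Rbbp4 (-0.011 to 0.24), Rbbp7 (-0.32 to 0.020) and Jarid2 (-0.29 to 0.16), none of which was called in any setting. With the block and without 17 February, 20 February or 2 March, the PRC2 genes called numbered 1, 0 and 2 and those of the other lists 8, 6 and 11. The median was 0.22 without the first date and -0.016 without the last, Ezh1 was -0.0054, Ezh2 -0.060 and Eed 0.093 without the middle one, and Ezh2 was -0.11 without the last. With all dates kept and 1 library left out, Ezh2 reached at most 0.29. Suz12 (0.25 to 0.52), Mtf2 (0.19 to 0.40), Phf1 (0.36 to 0.68) and Phf19 (-0.78 to -0.27) kept their direction. In fits that leave a pair of libraries in a line, the spread is pooled over genes and lines.

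Calls for date numbered 8 of 10, and 5 with DESeq2 or median centring, 0 with no variance trend and 3 to 8 with 1 library left out (3 without the R1 or the HN library of 20 February, 4 without the R1 library of 2 March). The Ezh2 to Ezh1 ratio ranged from -0.38 to 0.24 with 1 library left out and the Mtf2 to Phf19 ratio from 0.65 to 1.09, or 0.63 with a pseudocount of 10. The causes of these changes were not tested. Depth limits Phf19 and Phf1 most, with 7 to 66 reads per library.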
